A study of Mus musculus with 6 samples.

Results

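Guanylate-binding proteins (GBPs) and immunity-related GTPases (IRGs) are large GTPases that cells make after exposure to interferons, and their transcripts were examined in mouse melanomas grown at 2 body sites. The 10 genes described, Gbp2, Gbp3, Gbp4, Gbp5, Gbp6, Gbp7, Igtp, Irgm1, Irgm2 and Iigp1, were taken by their symbols from 45777 genes listed in the count matrix. The rule used gene symbols alone, and the family was proposed with earlier results of these data known. All 10 passed the filter on low counts that left 17210 genes for testing.

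The study asked how gene expression differs between B16F10 melanomas of the weight-bearing footpad and of the flank skin. B16F10 is a pigmented melanoma line derived from the C57BL/6 mouse. RNA of 3 tumors of the hind footpad and 3 of the flank skin was sequenced, 1 library for each tumor, without any drug treatment or engineered change of the tumor cells named in the labels. The labels state that tumors were removed and their RNA extracted, whereas the methods of the study speak of tumor cells isolated from the implantation sites and name no sort, so that other cells of the site may be included. The labels give the hosts of both groups as Foxn1-/- mice at 8 weeks. Such mice form almost no thymus-derived T cells and keep natural killer (NK) cells, macrophages and other innate cells. The title of the series speaks of a syngeneic graft, and the methods of the study describe such grafts in C57BL/6J mice, so the host of these tumors is given here as labelled. In those grafts cells were injected at several sites of a mouse at the same time. The labels do not tell which of these 6 tumors, if any, shared an animal, and p-values below measure the spread between the tumors as deposited.

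GBPs are recruited to the membranes of pathogen-containing vacuoles and to bacteria that have reached the cytosol, where they help to break these membranes open and to start inflammasome signaling. Among the IRGs, Irgm1, Irgm2 and Igtp are regulators that reside on endomembranes of the cell itself and hold the effector IRGs, such as Iigp1, inactive there. Transcription of both families is classically switched on by interferon-gamma, through GAS elements and through ISRE elements, the latter bound by IRF proteins such as IRF1. Tumor cells, macrophages, endothelial cells and fibroblasts can all make these proteins.

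The sequences upstream of the genes are shown first, since they carry the letters read by these factors. RefSeq windows of GRCm38.p6 were found for 7 of the 10 genes and 12 of 20 relatives. The 250 bases before the annotated start were searched on both strands for TTCNNNGAA (GAS) and for GAAA, any 2 bases and GAAA again (ISRE). ISRE letters were present in a window of each of the 7 genes. The share was 2.98% over 32851 windows of the same length before annotated starts, where a gene can have several windows. GAS letters were present in 4 of the 7, namely Gbp5, Gbp7, Igtp and Irgm2, against 7.02% of all windows. Gbp3 had a further window, at a start downstream, that held neither. Of the 12 relatives with a window, 5 had ISRE letters and 4 had GAS letters. Neither was found for Ifi47, 9930111J21Rik1, 9930111J21Rik2, Irgq, Atl1, Atl2 and Atl3. A stretch of 60 bases is printed for each of the 7 genes and for the effector IRGs Tgtp1 and Tgtp2, because those of Igtp, Irgm2, Tgtp1 and Tgtp2 share 1 arrangement of the GAS and ISRE letters. Capitals mark the fixed letters of the matches, and an ISRE on the other strand reads as 2 runs of TTTC.
Igtp: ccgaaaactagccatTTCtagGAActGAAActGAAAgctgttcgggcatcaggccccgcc
Irgm2: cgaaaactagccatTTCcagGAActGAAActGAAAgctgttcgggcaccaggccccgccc
Tgtp1: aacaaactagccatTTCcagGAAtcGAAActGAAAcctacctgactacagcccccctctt
Tgtp2: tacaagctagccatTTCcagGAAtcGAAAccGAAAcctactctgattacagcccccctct
Irgm1: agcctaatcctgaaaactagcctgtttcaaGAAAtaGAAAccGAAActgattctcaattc
Gbp2: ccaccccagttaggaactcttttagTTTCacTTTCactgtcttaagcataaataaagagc
Gbp3: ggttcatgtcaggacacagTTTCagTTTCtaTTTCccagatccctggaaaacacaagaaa
Gbp5: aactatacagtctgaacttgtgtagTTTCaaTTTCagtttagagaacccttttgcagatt
Gbp7: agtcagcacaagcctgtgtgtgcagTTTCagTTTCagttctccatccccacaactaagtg
On the plus strand, these stretches lie at chr11:58199496-58199555 for Igtp, chr11:58214888-58214947 for Irgm2, chr3:142620579-142620638 for Gbp2, chr3:142559980-142560039 for Gbp3, chr3:142496744-142496803 for Gbp5 and chr3:142530258-142530317 for Gbp7. On the minus strand they lie at chr11:48992289-48992348 for Tgtp1, chr11:49064248-49064307 for Tgtp2 and chr11:48871421-48871480 for Irgm1. In Igtp, Irgm2, Tgtp1 and Tgtp2 the GAS letters are followed by 2 bases and then by the ISRE letters, as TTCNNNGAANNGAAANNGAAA. This arrangement, whose spacing was read off after the positions were seen, was present in 5 of 32851 windows, or 0.0152%. The fifth was that of Gm12185, another IRG gene, and all 5 lie on chromosome 11, Tgtp1, Tgtp2 and Gm12185 in 1 cluster and Igtp and Irgm2 in another. In Irgm1 and Gbp3 a run of GAAA repeats gave 2 overlapping ISRE matches. A letter match describes the sequence and was not tested as a binding site.

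**Figure D1:**
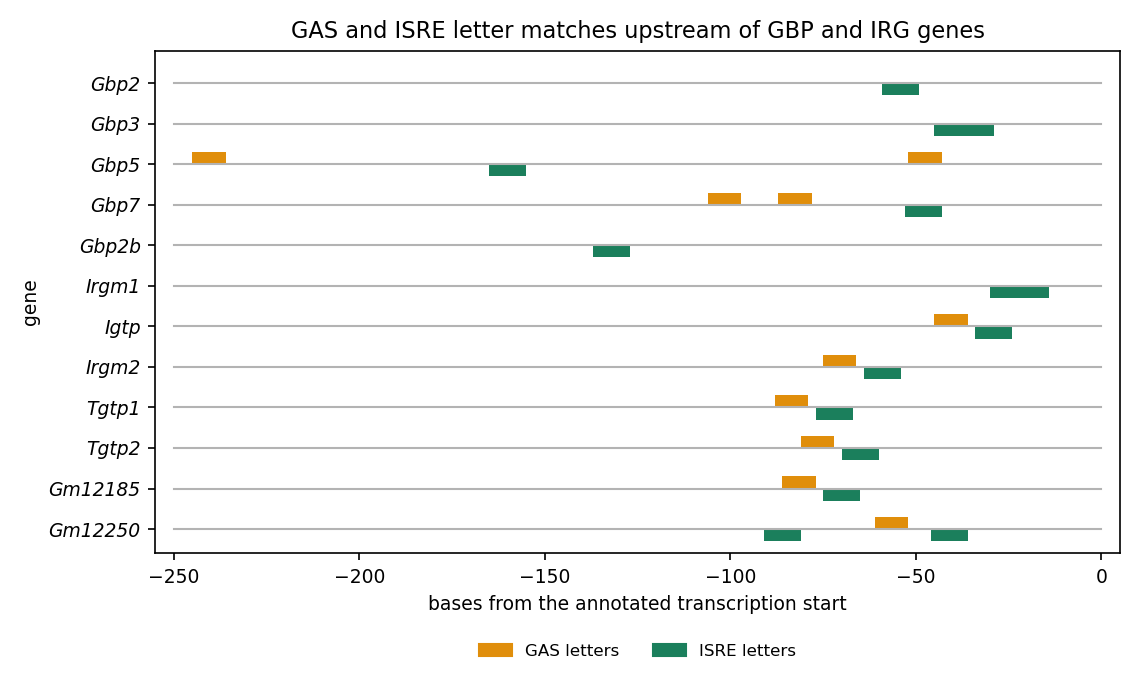
Positions of GAS letters (orange, above each line) and ISRE letters (green, below) in the 250 bases before the annotated start of each gene, with the distance in bases on the horizontal axis. The GAS letters lie directly before the ISRE letters in Igtp, Irgm2, Tgtp1, Tgtp2 and Gm12185, while Gbp2, Gbp2b, Gbp3 and Irgm1 show ISRE letters without GAS letters.

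Between 46529649 and 66364366 reads were counted per tumor, so that 3 reads correspond to 0.0438 to 0.0673 CPM (read counts scaled to a common library size, with TMM factors), and the common biological coefficient of variation of 0.338 exceeded counting error. Transcripts of several cell types were present. Summed melanocyte markers lay between 13943 and 29790 CPM and were highest in flank replicate 1. Footpad tumors carried 3054 to 4307 CPM of 12 fibroblast markers, against 105 to 482 CPM in the flank, with 10 of 12 called higher, and 4 of 12 endothelial markers were called higher as well. Of all tested genes 2.89% were called higher. Footpad replicate 2 stood apart by its 882 CPM of keratinocyte and muscle genes, against 6.31 to 58.7 CPM in the other tumors. Flank replicate 1 stood apart by its 1565 CPM of 30 genes stimulated by type I interferon, against 559 to 1064 CPM in the other tumors. For the 10 genes, values are also given without these 2 tumors where that moved a log2 fold change by over 1.5 times or turned it. The value of Gbp4, which moved less, is given as well. The choice of these 2 tumors was made after the values were seen. Averaged over the 10 genes, log2 CPM minus the gene mean was 0.63 in flank replicate 1, the highest flank tumor. It was -0.62 in footpad replicate 2, the lowest footpad tumor. Leaving both out raises the average footpad-over-flank difference by construction, so these values are no corrected estimate. In bulk RNA, fewer cells of a type and less RNA per cell cannot be told apart.

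By transcript length, Irgm1 was by far the most abundant of the 10. On the FPKM scale, which divides the fragments of a gene by its transcript length and by library size, the level was 23.2 ± 4.11 for Irgm1 (mean ± SD, n = 6 tumors), and its lowest tumor, at 18.4 FPKM, lay above the highest tumor of every other member. Irgm1 supplied 43.7 to 63.4% of the summed FPKM of the 10 genes in a tumor. A middle group followed at mean levels of 3.75 FPKM for Gbp7, 3.57 for Irgm2, 3.56 for Igtp, 3.19 for Gbp3 and 2.83 for Gbp2, whose neighbors in this order overlapped in range. Iigp1 came next at 0.835 FPKM, and Gbp2 was above it in 6 of 6 tumors although their ranges overlapped. The lowest levels were 0.374 FPKM for Gbp4, 0.265 for Gbp6 and 0.136 for Gbp5, again with overlapping ranges.

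None of the 10 genes was called between footpad and flank tumors. At a fold of 2 or more and a Benjamini-Hochberg adjusted p under 0.05 (edgeR, quasi-likelihood), 0 of 10 were higher in the footpad, where 2.89% of all tested genes were, and 0 of 10 were lower, where 0.872% were. Taken in either direction the background was 3.76%, so that a count of 0 among 10 genes is near it, and 0 of 10 passed at any fold, against 4.87%. At an unadjusted p under 0.05 the count was 1 of 10, Gbp6, against 25.3% of all tested genes. DESeq2 called 1 of 10, again Gbp6, lower in the footpad (background 2.05%) and 0 higher (background 6.71%), and limma called 0 of 10 on log2(FPKM + 1) and on log2(FPKM + 0.1) (backgrounds 2.13% and 4.96%). The sites overlapped for each of the 10 genes, whereas 32.5% of tested genes had sites that did not overlap. Log2 fold changes, footpad over flank, were above 0 for 4 genes and below 0 for 6, with a median of -0.20 beside -0.00425 over all tested genes. Without both footpad replicate 2 and flank replicate 1 the median was 0.27, and again 0 of 10 were called (edgeR). In that fit 1125 of 17107 tested genes were called higher in the footpad and 358 lower.

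**Figure D2:**
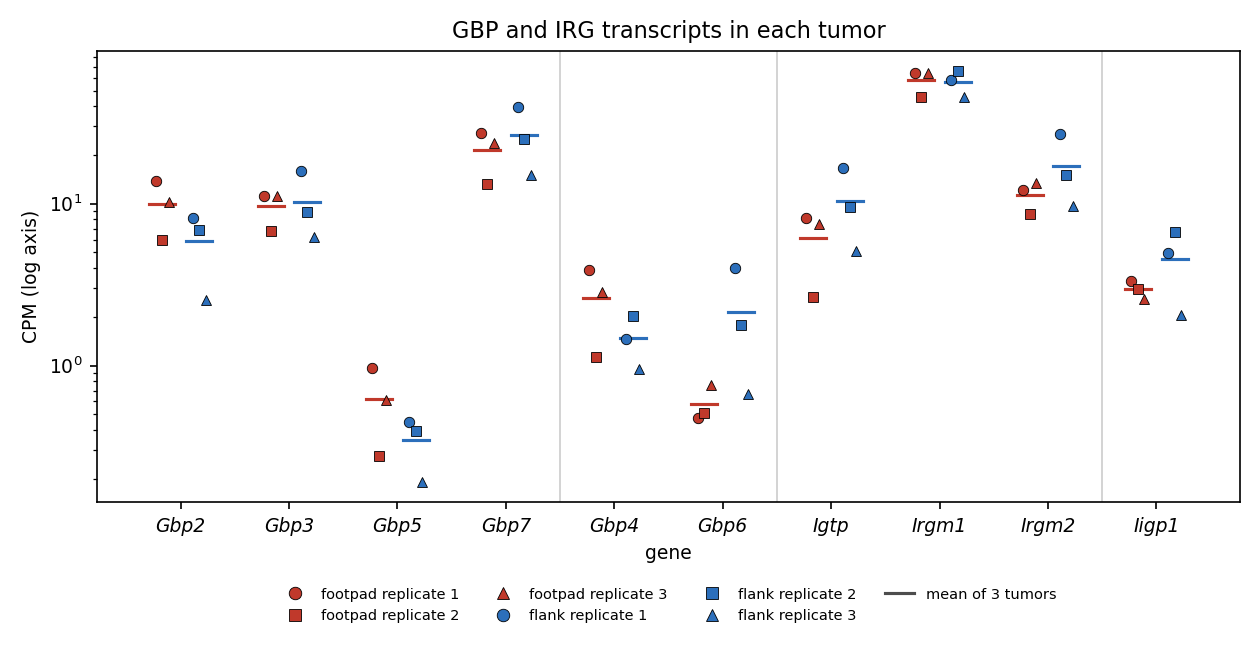
CPM of each gene (log axis) in the 3 footpad tumors (red) and 3 flank tumors (blue), with the replicate given by the symbol and the mean of a site by a bar. The 3 footpad tumors and the 3 flank tumors overlap for each gene, and flank replicate 3 (blue triangles) is the lowest tumor for 6 of 10 genes.

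The GBPs of chromosome 3 among the 10 genes are Gbp5 (chr3:142496934-142522344), Gbp7 (chr3:142530336-142550151), Gbp3 (chr3:142560016-142573213) and Gbp2 (chr3:142620663-142638008), with gene bounds from RefSeq on GRCm38. Gbp2b (chr3:142594816-142619179), a relative described below, lies between Gbp3 and Gbp2. Gbp2 encodes a lipid-anchored GBP that coats pathogen vacuoles. In footpad replicates 1 to 3 it measured 13.7, 5.94 and 10.2 CPM, and in flank replicates 1 to 3 it measured 8.14, 6.91 and 2.56 CPM. Footpad replicates 1 and 3 were above all flank tumors, and footpad replicate 2 was below flank replicates 1 and 2. The log2 fold change was 0.76 ± 0.47 (SE, adjusted p = 0.353, edgeR), an interval of -0.33 to 1.86, and it was 1.34 (adjusted p = 0.0982) without both footpad replicate 2 and flank replicate 1. Gbp5, which in macrophages promotes assembly of the NLRP3 inflammasome, was scarce and had the same order of tumors within the footpad. Its level was 0.965, 0.277 and 0.612 CPM in the footpad and 0.448, 0.393 and 0.192 CPM in the flank, from 12 to 43 reads per tumor. For Gbp5 the log2 fold change was 0.83 ± 0.60 (SE, adjusted p = 0.420, edgeR), or 1.43 without the same 2 tumors and 0.36 without footpad replicate 1. Without footpad replicate 1 that of Gbp2 was 0.46, and without flank replicate 3 it was 0.40.

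Gbp3 and Gbp7 had log2 fold changes below 0, and whether they differed from those of Gbp2 and Gbp5 was not tested. Gbp3, a GBP that can act together with other family members at vacuoles, measured 11.2, 6.78 and 11.1 CPM in the footpad and 15.8, 8.84 and 6.25 CPM in the flank. Its log2 fold change was -0.09 ± 0.37 (SE, adjusted p = 0.906, edgeR), and it became 0.11 without footpad replicate 2, 0.36 without flank replicate 1 and 0.56 without both. Gbp7, a GBP linked to the assembly of the phagocyte oxidase, measured 27.2, 13.2 and 23.5 CPM in the footpad and 39.4, 25.1 and 15.1 CPM in the flank. The highest tumor was flank replicate 1 for both genes. The log2 fold change of Gbp7 was -0.32 ± 0.38 (SE, adjusted p = 0.640, edgeR), or 0.08 without flank replicate 1 and 0.34 without footpad replicate 2 as well.

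Gbp4 (chr5:105115767-105139586) and Gbp6 (chr5:105270702-105295871) belong to the second mouse GBP cluster, on chromosome 5, and they took opposite signs. Gbp4 measured 3.88, 1.12 and 2.84 CPM in the footpad and 1.47, 2.04 and 0.959 CPM in the flank, with a log2 fold change of 0.81 ± 0.51 (SE, adjusted p = 0.360, edgeR), which was 1.17 without both footpad replicate 2 and flank replicate 1 and 0.41 without footpad replicate 1. As for Gbp2 and Gbp5, its highest tumor was footpad replicate 1. Gbp6 had the largest difference of the 10 genes, at 0.471, 0.510 and 0.755 CPM in the footpad and 3.98, 1.78 and 0.671 CPM in the flank. Flank replicates 1 and 2 exceeded all footpad tumors, whereas flank replicate 3 lay below footpad replicate 3. The log2 fold change of Gbp6 was -1.89 ± 0.64 (SE), with an interval of -3.38 to -0.39, an unadjusted p of 0.0198 and an adjusted p of 0.123 in edgeR, and an adjusted p of 0.0393 in DESeq2. It was -1.08 without flank replicate 1 and -0.99 without footpad replicate 2 as well. Reads of Gbp6 are uncertain, because 70.1% of the 50-base stretches of its transcript also occur in another family transcript, 62.3% in that of Gbp10, and how reads matching several genes were counted is not given in the sources used here. For Gbp4 this share was 11.5%, and for the other 8 genes it lay between 0 and 11.1%.

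Of the regulatory IRGs on chromosome 11, Irgm1 (chr11:48865245-48871420), required for resistance to several intracellular pathogens and for autophagy, differed least. It measured 63.7, 45.7 and 64.1 CPM in the footpad and 58.0, 65.7 and 45.5 CPM in the flank, so that each site held 1 tumor near 46 CPM and 2 higher ones. Its log2 fold change of 0.04 ± 0.19 (SE, adjusted p = 0.927, edgeR) had an interval of -0.41 to 0.49, and it ranged from -0.10 without flank replicate 3 to 0.18 with another tumor left out, and was 0.20 without both footpad replicate 2 and flank replicate 1. Irgm2 (chr11:58214977-58222783) measured 12.2, 8.65 and 13.4 CPM in the footpad and 26.8, 14.9 and 9.62 CPM in the flank. Igtp (chr11:58199556-58207592), its close neighbor and the IRG also called Irgm3, measured 8.15, 2.65 and 7.49 CPM in the footpad and 16.5, 9.49 and 5.13 CPM in the flank. In both, flank replicates 1 and 2 exceeded all footpad tumors while flank replicate 3 did not. Log2 fold changes were -0.59 ± 0.37 for Irgm2 (SE, adjusted p = 0.360, edgeR) and -0.77 ± 0.53 for Igtp (SE, adjusted p = 0.399, edgeR). Without both footpad replicate 2 and flank replicate 1 they were 0.056 for Irgm2 and 0.10 for Igtp.

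Iigp1, an effector IRG of chromosome 18 that loads onto the vacuole of Toxoplasma, was even within the footpad. Its footpad tumors measured 3.35, 2.99 and 2.57 CPM and its flank tumors 4.95, 6.72 and 2.05 CPM. Flank replicate 2 was the highest and flank replicate 3 the lowest of all 6. The log2 fold change was -0.62 ± 0.43 (SE, adjusted p = 0.401, edgeR), and it ranged from -0.24 without flank replicate 2 to -0.98 without flank replicate 3.

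**Figure D3:**
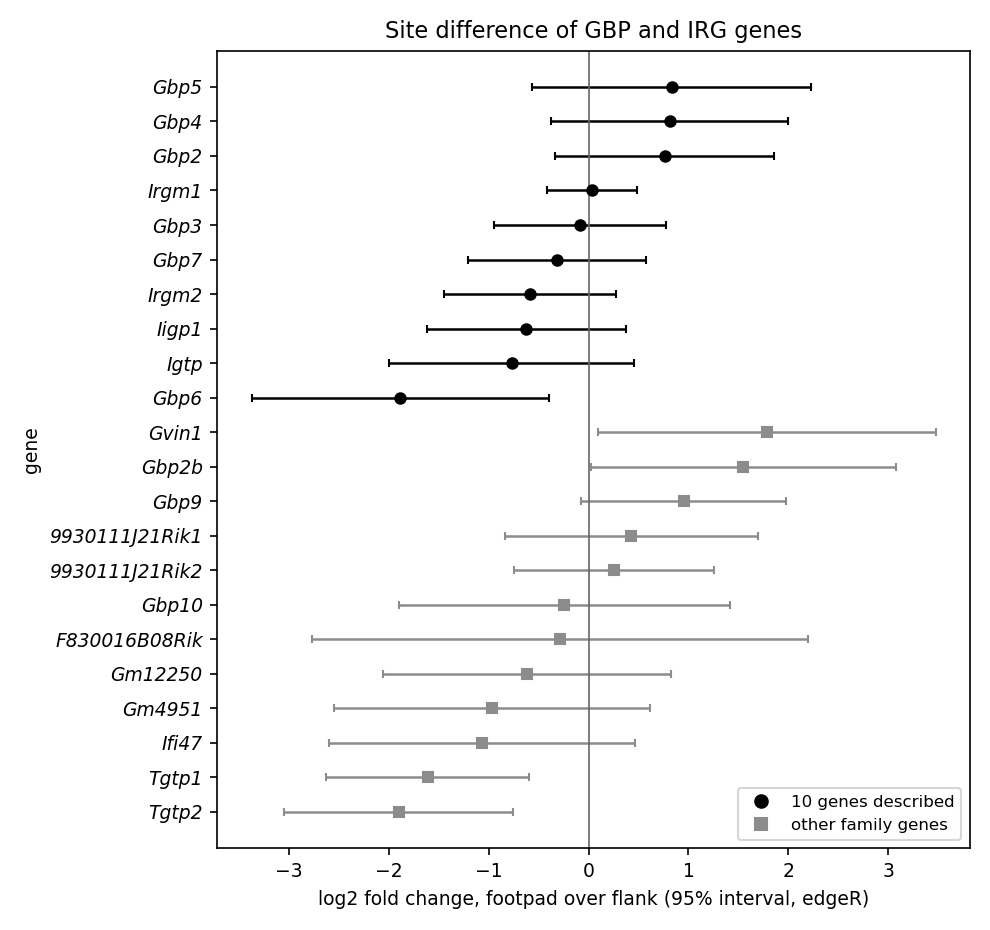
Log2 fold change, footpad over flank, with its 95% interval from edgeR, for the 10 genes (black circles) and 12 other GBP, IRG and large inducible GTPase genes that passed the filter (gray squares). Of the 10 genes only Gbp6 has an interval that excludes 0, at -3.38 to -0.39, and its adjusted p is 0.123.

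The 10 genes did not share 1 order of tumors. Flank replicate 1 was the highest tumor for 5 genes (Gbp3, Gbp6, Gbp7, Igtp and Irgm2), footpad replicate 1 for 3 (Gbp2, Gbp4 and Gbp5) and flank replicate 2 for 2 (Irgm1 and Iigp1). Over all tested genes flank replicate 1 was highest for 23.9% and footpad replicate 1 for 23.1%. The lowest tumor was flank replicate 3 for 6 genes, footpad replicate 2 for 3 and footpad replicate 1 for Gbp6. Over all 17210 tested genes these tumors were lowest for 2919, 2407 and 4580, with ties given to the first tumor listed. Summed over the 10 genes, the level was 145, 87.8 and 137 CPM in the footpad and 176, 142 and 88.1 CPM in the flank. Each site thus held 1 tumor with a low sum, and the flank tumors differed among themselves by more than the site means did.

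Pairwise Pearson correlations of log2 CPM over the 6 tumors, given as a description, ran from -0.155 between Gbp4 and Gbp6 to 0.961 between Gbp7 and Igtp, with a median of 0.64 and 43 of 45 above 0. The tumors share library and depth across genes, and 6 points describe these tumors alone. Gbp2, Gbp4 and Gbp5 were alike (r = 0.953 for Gbp2 with Gbp5, 0.955 for Gbp4 with Gbp5 and 0.875 for Gbp2 with Gbp4). A further set joined Gbp3 and Gbp7 of chromosome 3 with Igtp and Irgm2 of chromosome 11 (r = 0.948 for Gbp3 with Gbp7, 0.927 for Igtp with Irgm2 and 0.928 for Gbp7 with Irgm2). The sets were not sharply bounded. Gbp3 with Igtp, inside the second set, had r = 0.849, below r = 0.908 for Gbp6 with Irgm2 and 0.861 for Gbp4 with Irgm1. Both sets were picked out after the values were seen, and the first holds genes from 2 chromosomes as the second does. The upstream letters did not divide along these sets. GAS letters were found for Gbp5 but not Gbp2 in the first set and for Gbp7, Igtp and Irgm2 but not Gbp3 in the second, and the joined arrangement was found for Igtp and Irgm2 but not Gbp3 or Gbp7.

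Ratios of FPKM within a tumor, also chosen after the values were seen and therefore given without a test, are shown for 2 pairs of genes. The level of Gbp2 relative to Igtp was 1.39, 1.85 and 1.12 in the footpad tumors and 0.406, 0.599 and 0.411 in the flank tumors. For Gbp4 relative to Gbp6 it was 7.65, 2.05 and 3.78 in the footpad and 0.337, 1.00 and 1.32 in the flank, with the uncertainty of Gbp6 reads given above. Both ratios were higher in each footpad tumor than in any flank tumor, although the sites overlapped for each single gene. The sites also did not overlap for the other ratios computed, Gbp2 over Gbp3, Gbp2b over Tgtp2 and Irgm2 over Irgm1, the last lower in the footpad. Each pair shown joins a gene with a log2 fold change above 0 to 1 below 0. The share of other gene pairs with such a separation was not computed.

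**Figure D4:**
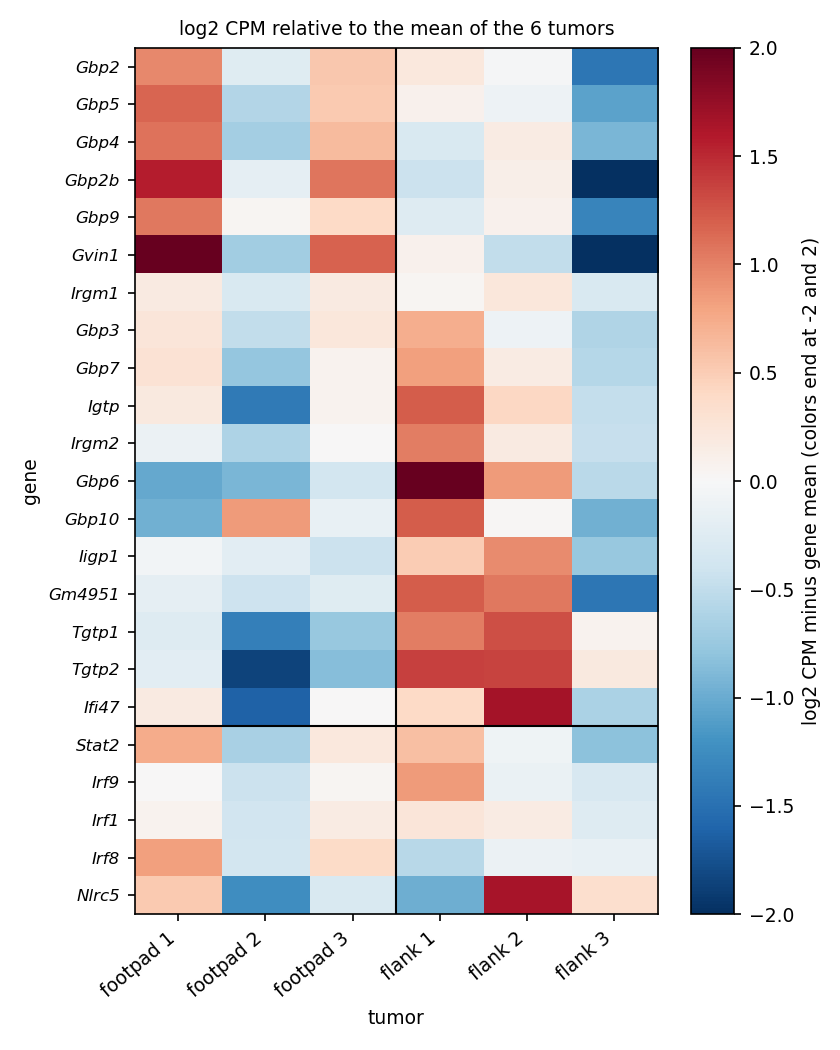
Log2 CPM of each gene in each tumor after subtraction of the gene's mean over the 6 tumors (red above, blue below the mean), for GBP, IRG and related genes above the horizontal line and interferon-pathway factors beneath it, in an order chosen after the values were seen. Gbp2, Gbp4 and Gbp5 are reddest in footpad replicate 1, whereas Gbp3, Gbp7, Igtp, Irgm2 and Gbp6 are reddest in flank replicate 1.

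Among 20 further GBP, IRG and related GTPase genes, 16 passed the filter and 0 were called in either direction by edgeR, with 6 at an unadjusted p under 0.05 and a median log2 fold change of -0.26. Over all tested genes 25.3% had such a p in edgeR, the share to set beside counts of this kind below. DESeq2 called 2 of the 16 lower, Tgtp1 and Tgtp2, against 2.05% of all tested genes. Atl1, a membrane-shaping GTPase of the endoplasmic reticulum and a distant relative of the GBPs, had an adjusted p of 0.0384 at a log2 fold change of -0.71, which is under the fold required. Tgtp1 and Tgtp2 encode the effector IRG Irgb6. Tgtp2 measured 3.37, 1.06 and 2.14 CPM in the footpad and 10.1, 9.99 and 4.46 CPM in the flank. Tgtp1 measured 2.09, 0.948 and 1.47 CPM in the footpad and 5.07, 6.09 and 2.60 CPM in the flank. Each flank tumor was above each footpad tumor for both genes. Their log2 fold changes were -1.90 ± 0.49 for Tgtp2 (SE, adjusted p = 0.0672, edgeR) and -1.61 ± 0.44 for Tgtp1 (SE, adjusted p = 0.0739, edgeR), with adjusted p-values of 0.0015 and 0.00571 in DESeq2. The pair counts as 1 observation, since 89.4% of the 50-base stretches of Tgtp1 and 90.6% of those of Tgtp2 recur in another family transcript.

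Other relatives had footpad-high values that did not pass the test. Gbp2b, the mouse gene formerly named Gbp1, measured 4.62, 1.36 and 3.27 CPM in the footpad and 1.14, 1.68 and 0.336 CPM in the flank (log2 fold change 1.55 ± 0.66, SE, adjusted p = 0.193, edgeR), with 1.97 without both footpad replicate 2 and flank replicate 1. Gvin1, a very large interferon-inducible GTPase, measured 36.3, 5.59 and 20.5 CPM in the footpad and 9.56, 6.41 and 2.09 CPM in the flank (log2 fold change 1.79 ± 0.73, SE, adjusted p = 0.178, edgeR). Its adjusted p was 0.0248 (edgeR) without both footpad replicate 2 and flank replicate 1, at a log2 fold change of 2.74. That fit called 1125 of 17107 tested genes higher in the footpad, against 497 of 17210 in the main fit. Gbp9 of the chromosome 5 cluster had a log2 fold change of 0.95 (adjusted p = 0.225, edgeR). The effector IRG Ifi47, at 4.09, 1.15 and 3.59 CPM in the footpad and 4.74, 11.4 and 2.32 CPM in the flank, had a log2 fold change of -1.07 (adjusted p = 0.351, edgeR). Further genes of the families (Gbp10, Gm4951, Gm12250, F830016B08Rik, 9930111J21Rik1 and 9930111J21Rik2) had log2 fold changes from -0.97 to 0.43, and Irgq, Atl2 and Atl3, relatives that are not known as interferon-inducible, had 0.42, -0.28 and 0.06.

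The ligand of the pathway was not detected. Ifng, which encodes interferon-gamma, had 0 reads in all 6 tumors, which allows a level of up to 0.0438 to 0.0673 CPM by counting error alone. Il12b and Il27, cytokine subunits that act upstream of it, were also at 0 reads. Other cytokine genes of the same list had reads. Il12a had 17 in footpad replicate 1 and 0 to 3 in the other tumors, Il15 had 50 to 223 per tumor, and Il18 is given below. The receptor genes Ifngr1 and Ifngr2 and the kinase genes Jak1 and Jak2 were expressed at both sites, with log2 fold changes from -0.06 to 0.16. NK cells are a main source of interferon-gamma in hosts without T cells. Their 13 markers summed to 0.241 to 1.28 CPM, 4 had 0 reads in all tumors, and 1, Il2rb, passed the filter. The 11 T cell markers summed to 0.16 to 0.50 CPM, with 3 at 0 reads in all tumors and none passing the filter.

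Downstream of the receptor, 23 of 28 genes of interferon-gamma signaling passed the filter and 0 were called by edgeR, with 4 at an unadjusted p under 0.05 and a median log2 fold change of 0.03. Irf1, a transcription factor of the cascade, was even at 14.9, 10.8 and 15.9 CPM in the footpad and 16.7, 15.8 and 11.9 CPM in the flank. Its log2 fold change was -0.09 (adjusted p = 0.823, edgeR). Irf8, a myeloid factor of the same family, had 0.63, Nlrc5, the transactivator of MHC class I genes, -0.88, Ciita, that of MHC class II genes, 0.59, and Socs1, a feedback inhibitor, 0.95, with adjusted p-values of 0.270 to 0.718 (edgeR). DESeq2 called 1 gene of the list, Il18, a cytokine that drives NK cells to make interferon-gamma, which lay at 1.26, 2.22 and 1.43 CPM in the footpad and 7.18, 4.98 and 3.21 CPM in the flank. Each flank tumor exceeded each footpad tumor. Its log2 fold change was -1.64 ± 0.39 (SE), with an adjusted p of 0.0565 in edgeR and 0.00148 in DESeq2.

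Of 31 targets of interferon-gamma outside the GTPases, 29 passed the filter, 0 were called higher and 1 was called lower in the footpad, with a median log2 fold change of -0.06. The 1 called was H2-K1, a classical MHC class I heavy chain, at 50.3, 31.0 and 48.4 CPM in the footpad and 146, 112 and 69.6 CPM in the flank. Its log2 fold change was -1.34 ± 0.30 (SE, adjusted p = 0.0491, edgeR), so it lay just inside the threshold, and the call was lost when any 1 of the 6 tumors was left out, with adjusted p-values from 0.0703 to 0.142 and log2 fold changes from -1.58 to -1.08. Without both footpad replicate 2 and flank replicate 1 the log2 fold change was -0.88 (adjusted p = 0.0482, edgeR), under the fold required. Over all genes, calls numbered 0, 31 and 46 in 3 of these fits. B2m, the light chain of the same complex, had a log2 fold change of -0.53 (adjusted p = 0.235, edgeR), and H2-D1, another class I heavy chain, -0.10 (adjusted p = 0.829, edgeR). DESeq2 called 4 of the 29 higher (Nos2, Fcgr1, Icam1 and H2-Ab1) and 2 lower (H2-K1 and Cxcl11), so that calls of both directions occurred within the list. Over all tested genes DESeq2 called 6.71% higher and 2.05% lower. Nos2, the inducible nitric oxide synthase of activated macrophages, measured 14.2, 2.64 and 5.80 CPM in the footpad and 0.414, 1.57 and 0.607 CPM in the flank, with a log2 fold change of 3.12 ± 0.74 (SE, adjusted p = 0.0564, edgeR). Cxcl11, a chemokine for T and NK cells, measured 0.359, 0.204 and 0.572 CPM in the footpad and 1.72, 1.90 and 0.799 CPM in the flank (log2 fold change -1.97 ± 0.54, SE, adjusted p = 0.0765, edgeR). The sites did not overlap for Nos2 or for Cxcl11.

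For 30 genes stimulated by type I interferon, 30 passed the filter and 0 were called by edgeR or by DESeq2, with 4 at an unadjusted p under 0.05 in edgeR and a median log2 fold change of -0.33. Flank replicate 1 was the highest tumor for 22 of 30. Their summed level was 1064, 559 and 881 CPM in the footpad and 1565, 688 and 560 CPM in the flank. The order of tumors resembles that of Gbp3, Gbp7, Igtp and Irgm2, with flank replicate 1 first and footpad replicate 2 and flank replicate 3 at the low end. Rsad2, which encodes the antiviral enzyme viperin, was instead highest in footpad replicate 1, at 354, 84.2 and 209 CPM in the footpad and 279, 84.4 and 65.7 CPM in the flank. The type I pathway list, with the receptor genes Ifnar1 and Ifnar2 among 8 tested genes, had 0 called by edgeR or DESeq2 and 1, Irf3, at an unadjusted p under 0.05.

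**Figure D5:**
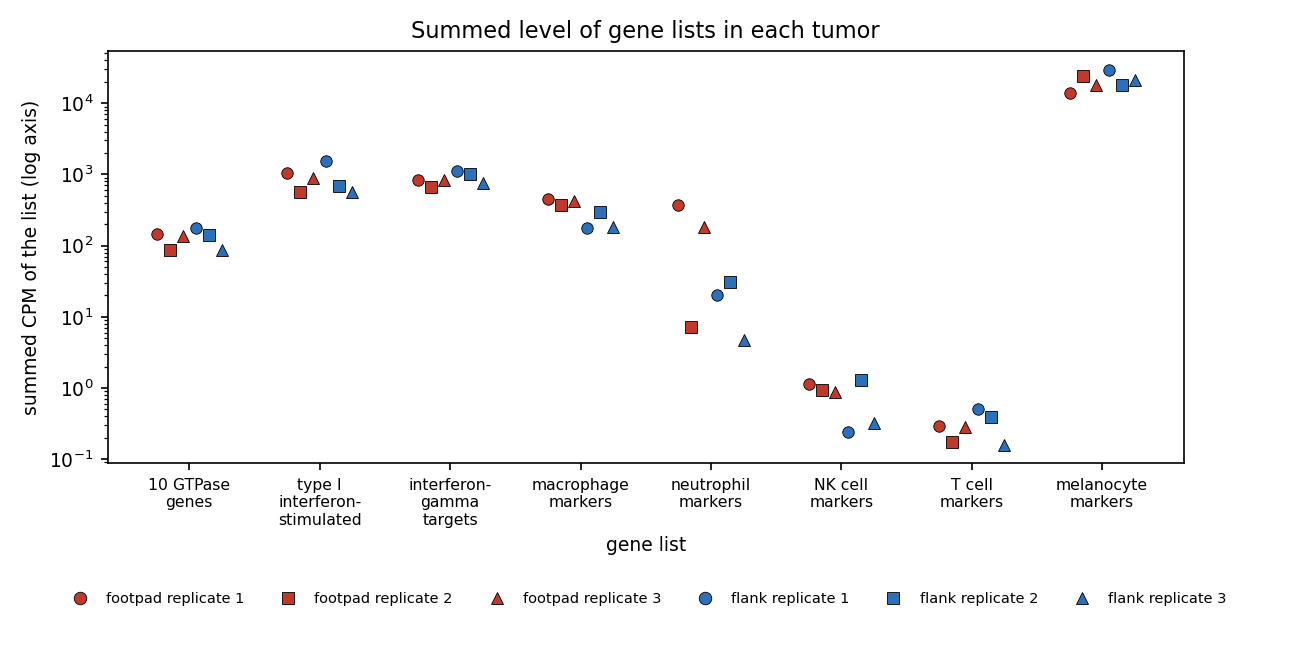
Summed CPM (log axis) of the 10 GTPase genes and of 7 other gene lists in each tumor, footpad in red and flank in blue, with the replicate given by the symbol. The 10 GTPase genes span 87.8 to 176 CPM with both sites mixed, NK cell and T cell markers lie near or under 1 CPM, and macrophage markers are higher in each footpad tumor than in any flank tumor.

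Genes that act with GBPs and IRGs in the cell were also compared. Of 16 autophagy and ubiquitin genes that help place the GTPases on vacuoles, 16 passed the filter and 0 were called by edgeR or DESeq2, with 1, Rnf213, at an unadjusted p under 0.05 and a median log2 fold change of 0.00267. Rnf213, an interferon-inducible ubiquitin ligase, measured 206, 123 and 201 CPM in the footpad and 277, 369 and 238 CPM in the flank (log2 fold change -0.73 ± 0.25, SE, adjusted p = 0.122, edgeR). Each flank tumor was above each footpad tumor. Of 12 inflammasome genes, 12 passed and 0 were called by edgeR, with 2 at an unadjusted p under 0.05 and a median log2 fold change of 0.19, and DESeq2 called Il18 as above. Gsdmd, the pore-forming protein released by caspase cleavage, measured 4.44, 2.0 and 4.06 CPM in the footpad and 8.33, 4.88 and 3.66 CPM in the flank, and Il1b, the cytokine matured by inflammasomes, 33.5, 2.20 and 20.3 CPM in the footpad and 0.914, 9.89 and 1.23 CPM in the flank.

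Macrophages express GBPs and IRGs strongly after exposure to interferon, and some of their markers were higher in the footpad. Of 13 macrophage markers, 2 were called higher in the footpad (edgeR) and 5 had an unadjusted p under 0.05, the 2 being Cd68 (log2 fold change 1.51, adjusted p = 0.0429), a lysosomal protein, and Msr1 (log2 fold change 1.99, adjusted p = 0.0234), a scavenger receptor. Of all tested genes 2.89% were called higher and 25.3% had an unadjusted p under 0.05 in either direction (edgeR). The macrophage markers summed to 445, 371 and 430 CPM in the footpad and 174, 295 and 182 CPM in the flank. Flank replicate 1 was the lowest tumor for 11 of 13 markers, against 4212 of 17210 tested genes, although its sum was close to that of flank replicate 3. It was the highest tumor for Gbp3, Gbp6, Gbp7, Igtp and Irgm2. Neutrophil markers summed to 377, 7.19 and 183 CPM in the footpad and 20.5, 31.2 and 4.76 CPM in the flank. Gbp2, Gbp3, Gbp4, Gbp5, Gbp7 and Igtp had the same order within the footpad. So did the sums of the 10 genes, of the genes stimulated by type I interferon and of hemoglobin, so this order is not particular to a subset. The 10 dendritic cell markers summed to 12.7 to 16 CPM in the footpad and 11.3 to 15.3 CPM in the flank. Hemoglobin transcripts summed to 35413, 3859 and 17377 CPM in the footpad and 30310, 3466 and 1878 CPM in the flank, with footpad replicate 1 and flank replicate 1 highest at their site. The part of these cells in the values of the 10 genes was not tested.

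The genes whose pattern over the 6 tumors was most like the mean of the 10, by Pearson r of log2 CPM among 17199 genes compared, were Zfp263 (r = 0.998), Ppp4r1l-ps (0.996), Mmaa (0.996), Platr25 (0.994) and Gm41231 (0.990). Over 6 tumors, 37 of the genes compared had r over 0.95 and 41 had a Spearman rho of 1. Irf1 had r = 0.949 and ranked 38, and Stat2, chosen for mention after its value was seen, had 0.912 and ranked 123. Of the 5 genes, 4 were among the 41 tied at a Spearman rho of 1, and 1 was among the first 5 by Pearson r of log2(FPKM + 1).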

How the data were processed

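Reads were trimmed by the authors with Trimmomatic and mapped to mm10 with HISAT2 (version 2.1.0). The deposited values are a raw whole-number read count for each RefSeq gene and an FPKM value for each gene and tumor, in which the authors corrected for the length of the transcript and the size of the library. Which program counted the reads, whether it used strand, how it treated reads shared by several genes and what the filter in the methods removed are not given in the sources used here, and the labels name an unstranded and a stranded library kit.

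Counts were tested with edgeR 4.0.16 in R 4.3.3. The steps were the default filterByExpr filter, scaling by TMM, glmQLFit and glmQLFTest on site alone, and Benjamini-Hochberg adjustment over 17210 genes, and a call needed an adjusted p under 0.05 and a fold of 2 or more. The standard error was taken as the size of the log2 fold change over the square root of F. The fit was also tested on simulated counts, with means and dispersion taken from these tumors. Log2 CPM used a prior count of 1. DESeq2 1.42.0 and limma 3.58.1 on log2(FPKM + 1) and log2(FPKM + 0.1), other filters and scaling, the replicate number as a block and each tumor left out in turn were alternatives. Levels between genes were compared by FPKM alone. Depth was 46529649 to 66364366 reads per tumor, and the floors (3 reads) cover counting error only. Intervals of log2 fold changes come from the edgeR fit and include the spread between tumors.

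Coordinates and upstream windows came from RefSeq GRCm38.p6. No window was used for Gbp4, Gbp6 and Iigp1. Stretches of 50 bases shared between genes were counted in GENCODE transcripts of the same assembly.

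The 10 genes and all lists were chosen with earlier results of these data known. The genes named are the 10, their relatives that passed the filter, in each other list those called and otherwise up to 4 with the largest mean CPM (for interferon-gamma signaling Ifng, Irf1, Irf8, Nlrc5, Ciita and Socs1), and the 5 genes most like the 10. Genes named beyond this rule (Gm12185, Stat2, Stat3, Socs3, Ptpn2, Il12a, Il12b, Il15, Il27, Il18, Il2rb, Ifngr1, Ifngr2, Jak1, Jak2, Ifnar2, Irf3, Nos2, Fcgr1, Icam1, H2-Ab1, Cxcl11 and the factors in the heat map) were chosen after their values were seen. A further gene of the interferon-gamma signaling list is not reported here.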

Additional observations from a re-analysis of the deposited data

How the results depend on the processing

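The count of the 10 genes called higher in the footpad was 0 under each of 14 alternatives, and the count called lower was 0 under 13 of them and 1 (Gbp6) with DESeq2. The median log2 fold change of the 10 genes ranged from -0.48 to 0.07 with 1 tumor left out and was 0.27 without both footpad replicate 2 and flank replicate 1, an alternative chosen after seeing the data. Direction changed for genes near 0. Gbp3 ranged from -0.35 to 0.36 with 1 tumor left out, including 0.11 without footpad replicate 2 and 0.36 without flank replicate 1, and was 0.56 without both. Gbp7 ranged from -0.60 to 0.08, the latter without flank replicate 1, and was 0.34 without both. Irgm1 ranged from -0.10 to 0.18, and was -0.04 without footpad replicate 1, -0.05 without footpad replicate 3 and -0.10 without flank replicate 3. Irgm1 was 0.20 without both. Igtp ranged from -1.10 with 1 tumor left out (flank replicate 3) to 0.10 without both, and Irgm2 from -0.88 (without flank replicate 3) to 0.056 without both. The cause was not tested. The replicate block called 0 of the 10 genes and 0 of all tested genes, against 647 without it. Deviations of same-numbered tumors correlated at 0.0544, -0.0965 and -0.115, and the largest value of any match was 0.264, for footpad replicate 2 with flank replicate 3. Such values cannot show whether tumors shared an animal. The labels give no pairs, so the numbers were not treated as pairs. Tgtp2 passed in DESeq2 and in limma on log2(FPKM + 0.1), the latter at an adjusted p of 0.0496. H2-K1 lost its call in 9 of 14 alternatives. Over all genes, 0 calls were made without footpad replicate 3, 31 without footpad replicate 1 and 46 without flank replicate 3, so an absent call says little there. Gbp5, at 12 to 43 reads per tumor, and Gbp6, at 21 to 231, had the fewest reads.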
